A study of Mus musculus with 4 samples.

Results

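The genes described here are 10 inhibitors of MAP kinase and growth signals: the MAP kinase phosphatase genes Dusp1, Dusp4, Dusp5, Dusp6 and Dusp10, and the receptor and RAS inhibitor genes Errfi1, Spry2, Spry4, Spred2 and Rasa3. They are 10 of 21887 protein-coding genes on the mouse chromosomes in the RefSeq table used. A binding site was assigned to a member when the centre of a listed peak lay inside the gene span or within 100 kb of it. By this rule the members held 16 of 2883 peaks at 12 h and 21 of 5638 peaks at 1 h, which made up 23 sites once overlapping peaks of the lists were paired. Chromatin immunoprecipitation and sequencing measured where GR, the glucocorticoid receptor that corticosterone activates, sat on DNA. The cells were 33AP1C9, a mouse mammary epithelial line derived from C127 cells. Every group carried a stably integrated MMTV-pp7 reporter and expressed GFP-tagged PP7 coat protein. Cells were kept in charcoal-stripped serum and phenol red free medium, then left untreated (0 h) or given 600 nM corticosterone, which lasted 1 h or 12 h. Each condition has 1 library. A genomic input sample is also listed, and a peak list for it was not analysed here. Peak lists hold no expression values, so the mammary identity of the cells could not be checked against markers, and no transcript level of a member was measured.

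MAP kinase cascades carry signals from growth factor receptors through RAS and a chain of kinases to ERK, and stress signals through sister chains to p38 and JNK. Dual-specificity phosphatases of the MAP kinase phosphatase class end the signal by removing phosphate from the activation loop of these kinases. Sprouty and SPRED proteins, RAS GTPase-activating proteins and the EGF receptor inhibitor encoded by Errfi1 act further upstream. Ligand-bound GR enters the nucleus and binds DNA, typically at paired hexamers, and Dusp1 is a textbook glucocorticoid target gene through which the hormone restrains p38 and JNK signalling.

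Library totals were 79203826 tags in untreated cells, 90556119 at 1 h and 97749688 at 12 h. Signal is given as normalised tags, the deposited tag count of a peak per 10000000 tags of its library. For the 1 h and 12 h lists the caller used the untreated library as its control and asked for a fold of at least 6, so a listed site stands above that library by construction. Untreated cells had 1 listed peak in all and 0 near a member. In the windows of the member sites the untreated library held 1 to 20 raw tags, or 0.126 to 2.53 normalised tags. The labels give a different catalogue number for the second antibody in each sample. The numbers climb by the same step from sample to sample, the input included, so whether the antibody itself differed is not known, and its part in any difference was not tested. With 1 library per condition no test between conditions was possible. The 95% intervals of tags and of tag ratios below cover counting error only and compare libraries, not conditions.

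The promoters of the members are shown first. Of the 10 members, 8 had an entry in the RefSeq promoter table (GRCm38.p6), with 9 promoters in all, since Errfi1 has a pair. None of the 9 was overlapped by a peak at 12 h or at 1 h, where 0.158% and 0.304% of the 32851 promoters in the table were. With shares that low, the lack of a peak at 9 promoters is not read as a trait of the members. The nearest peak edge was that of the 1 h list 623 bp from the Dusp1 promoter. The glucocorticoid response element, AGAACA followed by any 3 bases (NNN) and TGTTCT, whose 12 fixed letters read alike on both strands, was searched in the 250 bases before each start. At up to 3 mismatches it was present in 5 of the 9 member promoters and in 12.3% of all promoters. The 5 closest matches are printed 5′ to 3′ to show how far each departs from the element, with capitals for the letters that match it.
Dusp1: caAACAaaccGTTCT
Dusp6: AacACAaccTGTTCc
Dusp10: AGAcCActgTGaTgT
Errfi1 promoter 2: AaAACtcggTGTcCT
Spred2: gGgACAaagTGTTtT
At up to 2 mismatches the element was in 0 of the 9 and in 1.56% of all promoters. A perfect hexamer, AGAACA or its reverse complement TGTTCT, was in none of the 9 and in 16.1% of all promoters. Member promoters had a median GC content of 62.4% against 52.4% for all promoters, and the part of base composition in these shares was not tested. A match is a resemblance of letters, and its absence says only that these letters are not in this window. The Dusp1 promoter (chr17:26508473-26508722, minus strand) and the second Errfi1 promoter (chr4:150854820-150855069, plus strand) are given in full because they share a perfect motif and belong to the members with peaks a few kb outside the gene. Capitals mark TGACGTCA, the palindromic cAMP response element, a motif looked for after these sequences had been seen. It occurred in 2 of the 9 member promoters and in 1.55% of all promoters, and in neither did it overlap the match above.
Dusp1 promoter: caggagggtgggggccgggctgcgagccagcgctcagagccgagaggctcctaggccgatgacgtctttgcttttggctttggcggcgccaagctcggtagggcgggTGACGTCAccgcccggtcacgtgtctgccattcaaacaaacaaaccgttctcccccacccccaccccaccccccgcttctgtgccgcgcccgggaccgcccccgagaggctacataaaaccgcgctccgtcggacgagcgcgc
Errfi1 promoter 2: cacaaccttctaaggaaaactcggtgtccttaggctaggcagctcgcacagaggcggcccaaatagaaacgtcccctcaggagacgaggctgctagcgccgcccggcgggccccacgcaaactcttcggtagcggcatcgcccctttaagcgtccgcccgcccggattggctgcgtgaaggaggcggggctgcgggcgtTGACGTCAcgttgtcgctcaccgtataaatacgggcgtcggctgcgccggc

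Of the 10 members, 4 had a peak within 100 kb at 12 h (40.0%, Wilson interval 16.8 to 68.7%) and 5 at 1 h (Wilson interval 23.7 to 76.3%). Among all protein-coding genes 22.3% had one at 12 h and 37.4% at 1 h, shares that lie inside those intervals. The members were chosen and are not independent draws, so the intervals only describe how little 10 genes can tell and are no test. Dusp1, Errfi1, Spred2 and Rasa3 had peaks at both times and Dusp6 at 1 h alone. The 5 members without a peak at either time were Dusp4, Dusp5, Dusp10, Spry2 and Spry4. Of the 23 sites, 13 were more than 25 kb outside the span and 3 were inside a span. Another protein-coding gene was nearer than the member at 11 of the 23. Outside a span, the 100 kb rule takes in more bases beyond 25 kb than within it. The same shares were not counted for other genes, so these counts are not read as a trait of the members. Distances of sites listed at both times are those of the 1 h centre. A site in reach of a gene is not thereby shown to act on it.

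**Figure D1:**
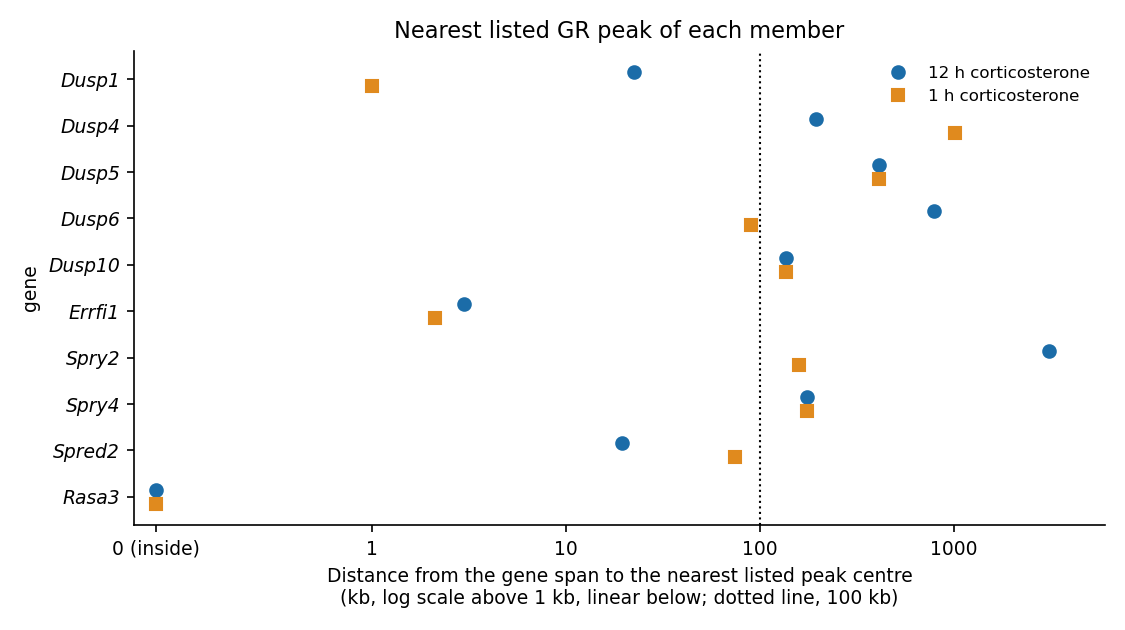
Distance in kb from the gene span to the centre of the nearest listed peak, for each of the 10 members, on an axis that is logarithmic above 1 kb; circles are the 12 h list and squares the 1 h list. Points left of the dotted line at 100 kb are 4 members at 12 h and 5 at 1 h, and Rasa3 alone lies at 0 because its peaks fall inside the gene.

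Dusp1 (chr17:26505591-26508472, minus strand), the phosphatase of p38, JNK and ERK that glucocorticoids are known to induce, had 3 peaks at 12 h and 5 at 1 h, all upstream of the gene. The site 22.5 kb upstream (chr17:26530810-26531092 at 1 h) held 1.89 normalised tags in untreated cells, 45.7 at 1 h and 23.5 at 12 h. The 1 h library was the high one, and the 12 h library was lower at a log2 ratio of -0.96 (95% counting interval -1.20 to -0.72). A neighbouring site whose centre lay 4.4 kb further upstream (chr17:26535208-26535490) held 47.7 tags at 1 h (43.3 to 52.4) and was not listed at 12 h. That site was slightly nearer to Ergic1, at 25.4 kb, than to Dusp1, at 26.9 kb. The peak closest to Dusp1, 1.01 kb upstream (chr17:26509345-26509627), was also in the 1 h list alone, with 10.9 tags (8.89 to 13.3) over 14 raw untreated tags. Its folds over the untreated library and over the local region were 6.18 and 6.54, just above the caller's minimum of 6. The strongest site lay 84.3 kb upstream, inside Ergic1 (chr17:26592623-26592925 at 12 h), where the 12 h library held 86.8 tags and the 1 h library 84.3 (log2 ratio 0.04, -0.10 to 0.18). The untreated library held 7 raw tags there, so both treated libraries were high and did not differ beyond counting error. The weaker Ergic1 site 76.2 kb upstream had 13.8 tags at 12 h against 17.9 at 1 h (-0.37, -0.71 to -0.04). The 3 sites closest to Dusp1 were lower or unlisted at 12 h, and so was the weak Ergic1 site. Over the whole 1 h list 43.2% of peaks had a 12 h partner, and 77.2% of all shared sites were lower at 12 h. The 5 sites of Dusp1 are too few to be told apart from those shares.

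Of the other 4 phosphatase genes, 1 had a peak in reach at 1 h and 0 at 12 h. Among all protein-coding genes the shares were 37.4% at 1 h and 22.3% at 12 h, and 4 genes are too few to be told apart from them. Dusp6, a phosphatase of ERK, had 1 peak at 1 h and 0 at 12 h. That peak lay 90.1 kb upstream inside Poc1b (chr10:99172967-99173249) and held 16.0 tags (13.5 to 18.8) at a fold of 6.34 over 20 raw untreated tags, near the minimum. Dusp4 and Dusp5, phosphatases found in the nucleus, had 0 peaks at both times. The closest peak to Dusp4 was a weak one 194 kb away at 12 h (7.88 tags), with none at 1 h nearer than 1020 kb. Dusp5 had its closest peak 414 kb away, a site of 39.6 tags at 12 h and 54.0 at 1 h that lies nearer to Add3. Dusp10, a phosphatase of p38 and JNK, had 0 peaks within 100 kb, but a site 136 kb from it ranked among the leading peaks of either list. It held 260.6 tags at 12 h, rank 6 by the authors' score, and 257.4 at 1 h, rank 24 (chr1:183898101-183898403 at 12 h), a log2 ratio of 0.02 (-0.06 to 0.10). That site was nearly as far, at 135 kb, from 1700056E22Rik on the other side.

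Errfi1 (chr4:150853796-150868889, plus strand), whose product binds and inhibits the EGF receptor kinase, had 4 peaks at 12 h and 5 at 1 h. All of them lay nearer to Errfi1 than to any other protein-coding gene. The site 68.6 kb upstream (chr4:150785014-150785296 at 1 h) held 1.01 normalised tags in untreated cells, 25 at 1 h and 39.1 at 12 h. It was the highest Errfi1 site at 12 h, and the only one of the 14 shared member sites whose interval lay wholly above 0, with a log2 ratio of 0.65 (0.41 to 0.89). The peak centres of the lists were 64 bp apart there. Its neighbours on both sides went the other way. The site 53.7 kb upstream had 20.7 tags at 12 h against 46.4 at 1 h (log2 ratio -1.17, -1.42 to -0.92). The site 77.6 kb upstream had 15.7 against 32.6 at the same times (-1.06, -1.35 to -0.77). Both were lower at 12 h by more than 2-fold. Downstream, 3.05 kb beyond the gene (chr4:150871796-150872078 at 1 h), 14.6 tags at 12 h stood against 29.2 at 1 h (log2 ratio -0.995, -1.30 to -0.70), which is 0.502-fold and so just short of 2-fold lower. Untreated cells gave 3 raw tags over the 12 h window of that site but 1 over the 1 h window, so its fold of 230.9 at 1 h rests on 1 control tag. A further peak with its centre 942 bp closer to the gene held 16.7 tags (14.1 to 19.6) and was in the 1 h list alone.

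Of the Sprouty and SPRED members, Spred2 alone had a site in reach, where 22.3% of all protein-coding genes had one at 12 h and 37.4% at 1 h. So few genes cannot be told apart from those shares. Spry2 and Spry4, which block RAS activation downstream of growth factor receptors, had 0 peaks at either time. For Spry2 the nearest peak was 160 kb away at 1 h (14.9 tags) and 3080 kb away at 12 h. For Spry4 a site 176 kb away, 8.98 kb from Ndfip1, had 34.4 tags at 12 h against 78.2 at 1 h (-1.19, -1.38 to -0.996). Spred2 (chr11:19924442-20024026, plus strand), whose product restrains RAS and RAF, had 2 peaks at each time. Its site 74.4 kb upstream (chr11:19849878-19850160 at 1 h) held 1.01 normalised tags in untreated cells, 55.9 at 1 h and 18.7 at 12 h. This was the lowest ratio of all shared member sites, at -1.58 (-1.83 to -1.33), or 0.335-fold. A peak 1.4 kb further upstream held 24.6 tags (21.5 to 28.1) at 1 h and was not listed at 12 h. In the 12 h list alone was a weak peak 19.4 kb downstream of Spred2 and nearer to Actr2, with 10.8 tags (8.88 to 13.1) and a local fold of 6.01 against the minimum of 6.

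Rasa3 (chr8:13567218-13677587, minus strand), a GTPase-activating protein for RAS and RAP1, was the member with most sites and the only one with peaks inside its span. It had 7 peaks at 12 h and 8 at 1 h. In the 1 h list 0.123% of protein-coding genes had as many peaks in reach, and in the 12 h list 0.0457% did. A long gene reaches more of the chromosome by this rule, and the Rasa3 span of 110 kb was the longest among the members. The main site inside the gene, 56.8 kb from its start (chr8:13620668-13620950 at 1 h), held 0.758 normalised tags in untreated cells, 67.9 at 1 h and 74.2 at 12 h. Both treated libraries were high, and they did not differ beyond counting error (log2 ratio 0.13, -0.03 to 0.28). The weaker peaks inside the gene were each listed at a single time: 12.0 tags (9.9 to 14.3) at 12 h at 36.9 kb from the start, and 18.9 tags (16.2 to 21.9) at 1 h at 29.1 kb. Beyond the 3′ end, the site 37.8 kb outside the span (chr8:13529244-13529526 at 1 h) had 71.3 tags at 12 h against 103.3 at 1 h (-0.53, -0.68 to -0.39). Its 1 h value was the highest of any member site, but it lay nearer to 1700029H14Rik, at 21.3 kb. The site 76.6 kb outside, in the shared span of Tmem255b and Gas6, a ligand of TAM family receptor kinases, had 55.3 tags at 12 h against 94.9 at 1 h (-0.78, -0.94 to -0.62). The site 45.6 kb outside, nearest to Gas6, had 31.0 against 38.7 at those times (-0.32, -0.55 to -0.09). All 3 of these outer sites were lower at 12 h beyond counting error. Near the Rasa3 start, a site 17.7 kb upstream, and nearer to Cfap97d2, had 10.9 tags at 12 h against 16.7 at 1 h (-0.61, -0.98 to -0.24). At the farthest site, 85.3 kb outside and also in the shared span of Tmem255b and Gas6, the peaks were 140 bp apart in centre. They had 16.6 tags at 12 h against 14.5 at 1 h (0.20, -0.14 to 0.54). The remaining peak, 18.2 kb beyond the 3′ end of Rasa3 and 1.71 kb from 1700029H14Rik, held 8.83 tags (7.01 to 11) at 1 h alone, over 11 raw untreated tags.

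**Figure D2:**
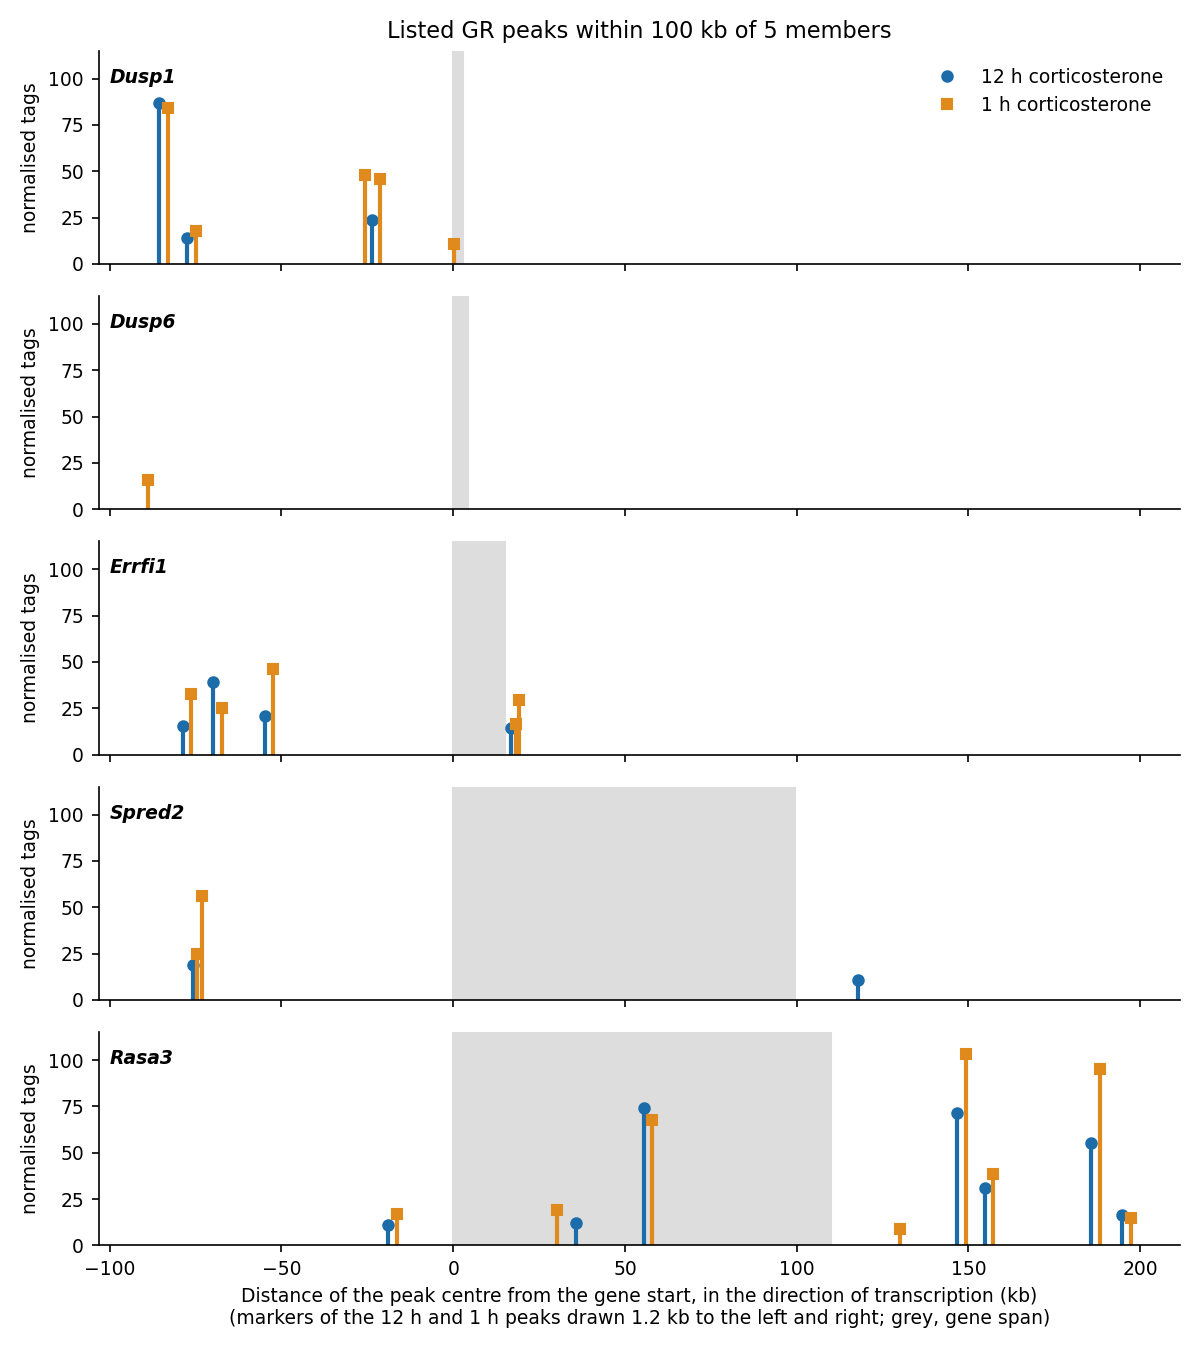
Normalised tags of each listed peak against the distance in kb of its centre from the gene start, for the 5 members with a peak; circles are 12 h, squares 1 h, and grey bands are gene spans. Rasa3 carries 9 of the 23 sites, and 3 of these lie inside the gene; at Dusp1 the peak closest to the gene is in the 1 h list alone, while the site 84.3 kb upstream is as high at 12 h as at 1 h.

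Over all members, 14 sites were listed at both times, 7 at 1 h alone and 2 at 12 h alone. The shared sites made up 87.5% of the 12 h member peaks (14 of 16, Wilson interval 64.0 to 96.5%), where 84.5% of all 12 h peaks had a 1 h partner. They made up 66.7% of the 1 h member peaks (14 of 21, 45.4 to 82.8%), where 43.2% of all 1 h peaks had a 12 h partner. Clustered peaks of a few chosen genes, 8 of them from Rasa3 at 1 h, are not independent draws. Both intervals are therefore descriptive and are no test. The 1 h member peaks were stronger than the list as a whole, with a median of 29.2 tags against 18.3 for all 1 h peaks, and the part of peak strength in that share was not tested. In their focus ratio, a fraction per peak deposited by the authors, member peaks had a median of 0.798 at 12 h and 0.817 at 1 h. The medians in the whole lists were 0.838 and 0.841.

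Of the 14 shared sites 10 had a lower and 4 a higher tag value at 12 h than at 1 h, where 77.2% of all 2436 shared sites were lower. The counting interval lay below 0 at 10, above 0 at 1 and across 0 at 3 of the 14, where 61.8% and 11.5% of all shared sites lay below and above. At least 2-fold lower were 3 (24.5% of all shared sites), which were the Errfi1 sites 77.6 and 53.7 kb upstream and the main Spred2 site. At least 2-fold higher were 0 (1.44% of all). The median log2 ratio was -0.57, against -0.49 over all shared sites, and the range was -1.58 to 0.65. These counts and medians are close to those of all shared sites. With the ratios taken relative to that overall median, 8 of the 14 were lower and 6 higher. Per base of the window, which is 302 bp at 12 h and 282 bp at 1 h, 5 were at least 2-fold lower. Summed over the 14 sites, the tags were 492 at 12 h over 4228 bp and 673 at 1 h over 3948 bp, a mean of 35.2 and 48.0 per site.

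**Figure D3:**
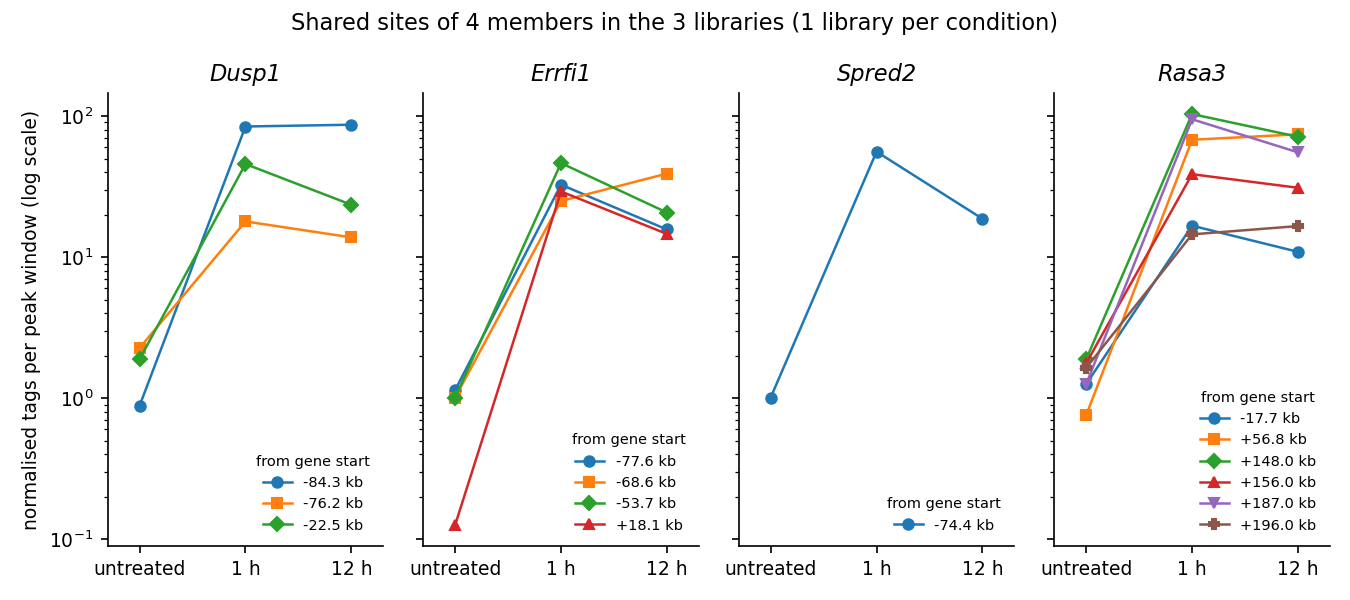
Normalised tags on a log scale at the 14 shared sites in the untreated, 1 h and 12 h libraries, in 1 panel for each of 4 members; each line is a site, named by its distance from the gene start. All lie at or under 2.27 tags in untreated cells; the Errfi1 site 68.6 kb upstream reaches 39.1 tags at 12 h, while the other 3 Errfi1 lines are lower there than at 1 h.

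Ratios also varied among the sites of a gene, as they did over all shared sites, where the interquartile range was -0.989 to -0.043. The spread within other genes was not counted, so it is not read as a trait of the members. Sites with high and low ratios were picked for the comparisons below. At Errfi1, sites within 25 kb of each other upstream of the gene had ratios of -1.17, 0.65 and -1.06, whose intervals do not overlap between the middle site and the outer pair. At Dusp1 the ratio was -0.96 at 22.5 kb and 0.04 at 84.3 kb, again with separate intervals. At Rasa3 the ratios ranged from -0.78 to 0.20, and the intervals of the lowest site and of the main site inside the gene were separate too. Spred2 had a single shared site. Summed over shared sites, the log2 ratio was -0.25 (-0.37 to -0.14) at Dusp1, with 124.1 tags at 12 h and 147.9 at 1 h over 906 and 846 bp. At Errfi1 it was -0.56 (-0.69 to -0.44), with 90.03 and 133.1 tags over 1208 and 1128 bp. At Rasa3 it was -0.37 (-0.45 to -0.30), with 259.3 and 335.8 tags over 1812 and 1692 bp. The sums of Dusp1, Errfi1 and Rasa3 each combine sites with ratios of both signs.

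**Figure D4:**
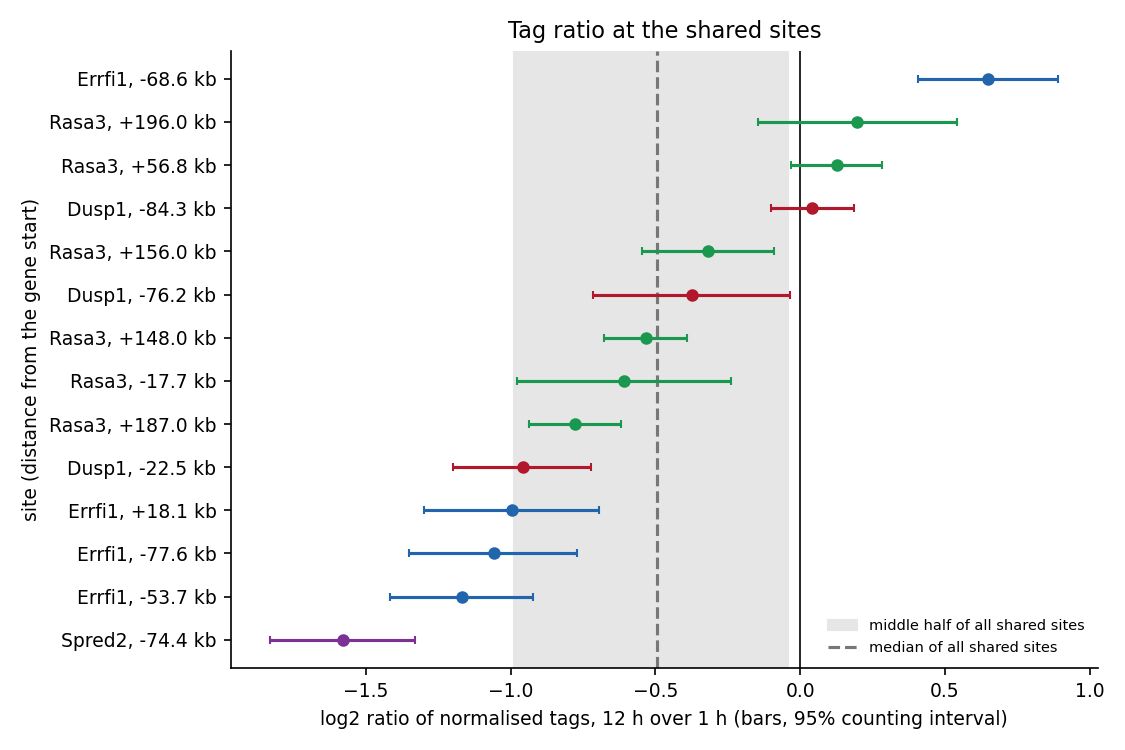
Log2 ratio of normalised tags, 12 h over 1 h, at the 14 shared sites, with 95% counting intervals; the grey band is the interquartile range over all 2436 shared sites and the dashed line their median of -0.49. Errfi1 sites run from the highest ratio, 0.65, to -1.17, and the main Spred2 site is the lowest at -1.58.

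Sites listed at 1 h alone had a lower median than shared sites, but the ranges overlapped. Their 7 peaks held 8.83 to 47.7 tags at 1 h (median 16.7), against 14.5 to 103.3 (median 42.2) at the 14 shared sites. Their median fold over the local region was 6.88, close to the minimum of 6, against 16.7 at shared sites. The same contrasts were not taken over the whole list, so they are not read as a trait of the members. The highest was the Dusp1 site of 47.7 tags, with a local fold of 12.3, and the next was the Spred2 site of 24.6 tags, with a local fold of 6.02. The Rasa3 site of 18.9 tags had a local fold of 10.75. To stand 6-fold over the untreated library at the Dusp1 site, the 12 h library needed 11.4 tags, and it may also have missed the caller's score or local minimum, for which no value is given. Of the 776 peaks at 1 h with at least 47.7 tags, 91.0% were listed at 12 h, and of the 1937 with at least 24.6 tags, 1453 were. These thresholds are the tags of the unlisted Dusp1 and Spred2 sites themselves, so the shares include stronger peaks. They are not shares for peaks of like strength. At Dusp1, Errfi1 and Spred2 1 unlisted site each sat within 5 kb of a shared one, at gaps of 4.4, 0.942 and 1.4 kb; the other unlisted Dusp1 site, 1.01 kb upstream, had no shared site that close. Of the 6 member peaks in such close pairs at 1 h, 3 were listed at 12 h; over the whole list, 39.7% of peaks with a neighbour within 5 kb and 43.5% of the others were. This distance was chosen after the sites had been seen. The 12 h tags at these 7 sites are not in the lists, so no ratio is given for them.

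Genes of the same pathways, from 6 lists of 75 genes, included 21 (28.0%) reached by a 12 h peak within 100 kb and 37 (49.3%) reached by a 1 h peak. Across all protein-coding genes the shares were 22.3% and 37.4%. The lists were chosen with earlier results of these data known, and gene length, on which the reach depends, was not taken into account. The difference is therefore not read as an enrichment. Among 8 other MAP kinase phosphatase genes the 12 h list reached 2 and the 1 h list 3. The site 38.1 kb from Dusp7, a phosphatase of ERK, lay nearer to Rpl29 and held 32.9 tags at 12 h and 33.7 at 1 h. A site 11.6 kb from Dusp2, an inducible nuclear phosphatase, held 32.4 tags at 1 h and was not listed at 12 h. Among 15 other inhibitor genes the counts were 5 at 12 h and 9 at 1 h. Inside Cblb, a ubiquitin ligase that acts on activated receptors, 154.1 tags stood at 12 h and 162.7 at 1 h. Inside Lrig1, an inhibitor of EGF receptor family proteins, a site of 85.3 tags was listed at 1 h alone. The 6 shared sites of these inhibitor genes were all lower at 12 h, where 77.2% of all shared sites were. Their median log2 ratio was -0.17, against -0.49 over all shared sites. The medians were -0.51 for the other phosphatase genes, -0.09 for receptors and ligands and -0.58 for the adaptor, RAS and ERK cascade. For p38 and JNK cascades and ERK targets they were -0.19 and -1.705. The list medians thus lay on both sides of -0.49, and so few sites cannot be told apart from all shared sites.

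Upstream and downstream of the inhibitors, 12 receptor and ligand genes included 6 with a peak at 12 h and 7 with one at 1 h. Of their 6 shared sites 3 were lower and 3 higher at 12 h, at a median of -0.09. The site 33.2 kb from Igf1r, the gene of the insulin-like growth factor receptor, and nearer to Pgpep1l, had 65.8 tags at 12 h against 60.4 at 1 h (0.12, -0.04 to 0.29). The site 34.8 kb from Fgf2, a fibroblast growth factor gene, and nearer to Bbs12, had 19.5 at 12 h against 52.0 at 1 h (-1.41, -1.66 to -1.17). For 18 adaptor, RAS and ERK cascade genes the counts were 3 at 12 h and 8 at 1 h. The strongest of these sites was near Ptpn11, the gene of a phosphatase that promotes RAS activation, with 56.4 tags at 12 h and 84.5 at 1 h. A site of 42.4 tags 73.8 kb from Frs2, an adaptor gene, and nearer to Best3, was in the 1 h list alone. For 13 genes of the p38 and JNK cascades they were 2 at 12 h and 6 at 1 h. Mapk13 and Mapk14, which encode p38 kinases, counted the same site inside Mapk14, with 62.8 tags at 12 h against 71.4 at 1 h (-0.19, -0.35 to -0.02). For 9 ERK target genes they were 3 at 12 h and 4 at 1 h. The leading one was Etv4, an ETS factor gene, with 2 peaks at 12 h and 6 at 1 h; its strongest site, 69.1 kb away and nearer to Dhx8, had 68.1 tags at 12 h against 290.8 at 1 h (-2.09, -2.22 to -1.97). At a site 90.9 kb from Rps6ka3, an ERK-activated kinase gene, and nearer to Map7d2, 13.7 tags stood at 12 h and 20.3 at 1 h.

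**Figure D5:**
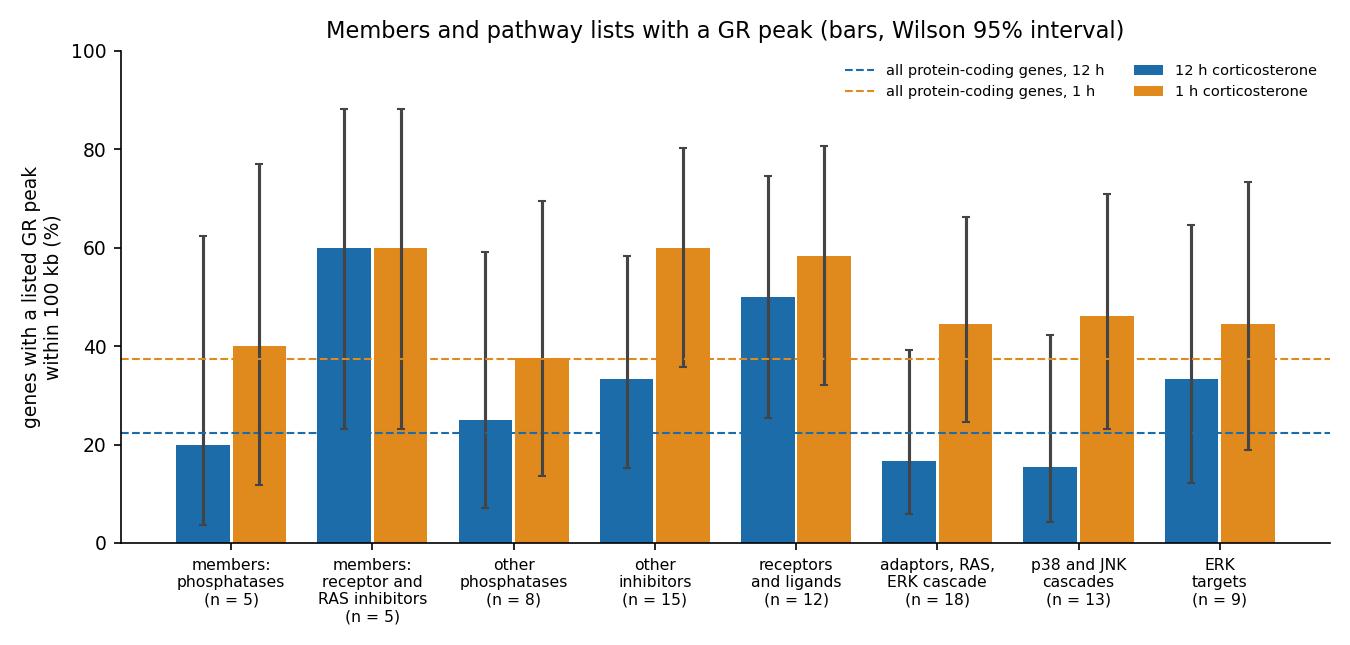
Percentage of genes that a listed peak reached within 100 kb (left bar of each pair 12 h, right bar 1 h), for the members in their 2 classes and for the 6 pathway lists, with Wilson 95% intervals; dashed lines are all protein-coding genes at 22.3% (12 h) and 37.4% (1 h). Of the 5 phosphatase members 1 has a peak at 12 h and 2 at 1 h, and of the 5 receptor and RAS inhibitors 3 at each time; with 5 genes each, the intervals run from 3.62 to 62.4% and from 23.1 to 88.2% at 12 h.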

How the data were processed

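GR ChIP-seq peak lists from 3 libraries (untreated, 1 h and 12 h of 600 nM corticosterone) were used as deposited by the authors. The submitters' processing notes name Bowtie2 2.2.6, bcl2fastq 2.17, HOMER (no version) and the mm10 build. Per the file headers, peaks were called per library with findPeaks in factor style, with a false discovery rate setting of 0.001 and a tag threshold of 75. Minimum folds were 6, against the control as against the surrounding 10 kb, and the limit on Poisson p-values was 0.0001. Per the file headers, the untreated library was the control of both treated lists, and an input that of the untreated list.

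The signal is the deposited normalised tag count. The score and the fold ratios are the authors' own values per peak, used only to describe and rank peaks within a list. Raw tags were recovered by scaling the deposited totals back (100% whole within 0.1 of a tag). The deposited tag count of the untreated peak, the focus ratio (a fraction per peak deposited by the authors) and the deposited p-values entered no test between libraries. Untreated tags per window are the deposited control tags.

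Genes came from RefSeq GRCm38.p6, the assembly of mm10, in which all 10 members and 75 pathway genes matched. Its spans were used; exons, UTRs and the genome sequence were not used here. Peaks of the lists were paired by an overlap of at least 1 bp. Ratios have exact binomial (Clopper-Pearson) 95% intervals, single counts exact Poisson intervals and shares Wilson intervals. No molecular identifiers were used, so tags may repeat a molecule, and the intervals of ratios and counts cover counting error only. Wilson intervals treat genes or peaks as independent draws, which chosen genes and clustered sites are not, so they are descriptive. Promoter motifs and sequences are those of the 250 bases before a start. Peak overlap and edge distance were taken over the whole RefSeq promoter window, which also holds a short stretch after the start. All members are named with all their sites, and up to 2 genes of each pathway list, by the tags of their strongest 1 h peak. Members and lists were chosen with earlier results of these data known. Pairing and intervals were tested on simulated data. Python 3.11.15, pandas 2.3.3 and SciPy 1.17.1 were used.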

Additional observations from a re-analysis of the deposited data

How the results depend on the processing

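The reach of 100 kb decides most counts. Within 10 kb of the span the lists reached 2 members at 12 h and 3 at 1 h, with 3 and 5 peaks and 2 shared sites, of which 1 was lower and 0 at least 2-fold lower at 12 h. Within 25 kb the lists reached 4 members at 12 h and 3 at 1 h, with 6 and 8 peaks and 4 shared sites, 3 of them lower and 0 at least 2-fold lower; more members were thus reached at 12 h than at 1 h, the reverse of 4 and 5 within 100 kb. Within 250 kb the lists reached 7 members at 12 h and 8 at 1 h, with 33 peaks at 1 h and 5 shared sites at least 2-fold lower. With only peaks nearest to the member there were 8 peaks at 12 h, 11 at 1 h and 7 shared sites, 5 of them lower, at a median log2 ratio of -0.995. Per base of the window, and with untreated tags subtracted, 5 shared sites were at least 2-fold lower. Centred on the median of all shared sites, at -0.49, the median was -0.076, 1 site was at least 2-fold lower, and the Dusp1 site 76.2 kb upstream and the Rasa3 site 45.6 kb outside the span turned to 0.121 and 0.176. Pairing by centres or by larger overlap, or keeping peaks of at least 2 times the lowest score, moved none of these counts by more than 1.5 times. At up to 2 mismatches 0 member promoters held the response element. No paired analysis was possible because the conditions share only 1 replicate number.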
